A study of Homo sapiens with 6 samples.

Results

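The centrosome and centriole mRNAs of HCT116, an established human line from a colorectal carcinoma, were followed in native RNA immunoprecipitation and sequencing (RIP-seq) of ORC1. Members were the rows of the gene table whose symbol starts with CEP and a digit, together with 23 named genes of the centriole and the pericentriolar material, which gave 56 of 23013 genes. Of these, 33 carried a CEP symbol, and 3 were pseudogenes (CEP57L1P1, CEP164P1 and CEP170P1). The cells were untreated in both groups. The 3 input libraries were total RNA of nuclear lysate taken without antibody, and the 3 ORC1 IP libraries were the RNA that came down from such lysate with an antibody to the endogenous ORC1 protein, which belongs to the origin recognition complex and helps to set where DNA replication begins. Each input and each ORC1 IP carries the number of a RIP replicate (1, 2 or 3), and by the labels the same number marks the same RIP experiment. Deviations from the group means did not bear this pairing out for replicates 1 and 2, and input 2 deviated together with ORC1 IP 1. Within a group of 3 libraries such deviations depend on each other, so they cannot decide whether inputs 1 and 2 are numbered correctly. The library titles give the same pairing as the replicate numbers. Ratios within replicates and results with the replicate block rest on these numbers. The unblocked limma fit uses no such numbers. A control IgG library was not analysed here, so every comparison is between ORC1 IP and input, in 1 cell line. The question was which RNAs are over-represented among those recovered with ORC1.

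Recovered reads on genes numbered 13703033 to 17248924 in the inputs and 25134156 to 36008733 in the ORC1 IPs (p = 0.1 in an exact permutation test, two-sided, where 3 against 3 libraries allow no smaller p). The share of reads on mitochondrial genes was 1.49 to 3.28% in the inputs, 0.617 and 0.257% in ORC1 IPs 1 and 3 and 6.0% in ORC1 IP 2, which thus stood apart. MALAT1, a nuclear long noncoding RNA, was also highest in ORC1 IP 2. All 5 epithelial marker genes were in the table, with summed levels of 16573 to 144917, whereas none of 3 blood markers was listed, 1 of 2 endothelial markers was (VWF, 7.88 to 37.3) and 2 of 4 fibroblast markers were. These 2, COL1A1 and PDGFRB, summed to 165 to 306 in the inputs and 435 to 797 in the ORC1 IPs, while COL1A2 and COL3A1 were not listed, and the part of this in the results was not tested. The mRNA of ORC1 itself did not pass the test (log2 fold change 0.33, adjusted p = 0.767). In bulk libraries such as these, more RNA per cell and more cells that hold it cannot be told apart. The ratio of ORC1 IP to input compares recovery with the antibody, not expression.

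The centrosome is the main microtubule organising centre of animal cells. It holds a pair of centrioles, cylinders built of microtubules, within pericentriolar material, a protein scaffold that recruits the gamma-tubulin ring complex, from which microtubules grow. Once per cell cycle, in step with DNA replication, each centriole templates a new one, under control of the kinase PLK4. The older centriole carries appendages that dock it to the membrane as the base of a cilium. Many of the scaffold proteins are long coiled coils.

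Sequences of 3 members show the RNA that quantitative PCR primers of the study read out, with the primer sites in capitals. All of them lie in coding exons (GENCODE v44, GRCh38). The CEP152 amplicon is at chr15:48738966-48739033 (minus strand), the CEP290 amplicon at chr12:88121015-88121092 (minus strand), and the CEP95 amplicon joins chr17:64532001-64532022 and chr17:64532839-64532912 (plus strand).
CEP152: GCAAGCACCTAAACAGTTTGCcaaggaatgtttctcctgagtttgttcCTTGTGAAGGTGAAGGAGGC
CEP290: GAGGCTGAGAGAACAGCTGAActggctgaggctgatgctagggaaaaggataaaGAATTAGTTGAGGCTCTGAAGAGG
CEP95: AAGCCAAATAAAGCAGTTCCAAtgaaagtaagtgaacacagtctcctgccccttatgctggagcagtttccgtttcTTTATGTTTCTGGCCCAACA

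A further set is shown because GAA triplets recur in the coding sequence of some called members. CEP152, CNTRL and CENPJ, also called, have no run of 3 such triplets in the canonical transcript. Each window lies within 1 coding exon, with 3 consecutive GAA triplets in capitals. The windows are from AKAP9 at chr7:92000911-92000967 and chr7:92079145-92079201 (plus strand), CEP290 at chr12:88049187-88049243 (minus strand), PCNT at chr21:46399662-46399718 (plus strand) and OFD1 at chrX:13767135-13767191 (plus strand).
AKAP9, first window: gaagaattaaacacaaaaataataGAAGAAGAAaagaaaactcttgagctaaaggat
AKAP9, second window: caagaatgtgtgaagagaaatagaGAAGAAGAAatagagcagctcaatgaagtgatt
CEP290: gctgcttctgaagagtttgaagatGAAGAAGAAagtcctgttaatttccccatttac
PCNT: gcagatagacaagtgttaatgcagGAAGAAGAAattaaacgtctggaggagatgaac
OFD1: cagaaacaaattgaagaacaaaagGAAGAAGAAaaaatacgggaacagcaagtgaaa

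Centrosome and centriole mRNAs were higher in ORC1 IP than in input more often than genes at large. With limma on log2(normalised count + 1) and Benjamini-Hochberg adjustment over 16513 genes, 18 of the 55 members tested rose (32.7%) and none fell, beside 2.28% of all genes tested that rose and 1.42% that fell. Before adjustment, 34 members had a p under 0.05, beside 3575 of the 16513 genes tested in either direction. Of these 34 members, only TUBG1 was lower. The pseudogene CEP164P1, with normalised counts of 1.17 to 5.28 in the 6 libraries, was too low to be tested. All ORC1 IP values lay above all input values for 30 members, beside 12.7% of all genes, and below them for 3 members, beside 13.5%, while the groups overlapped for 22. The median log2 fold change was 1.31 over the members and 0.01 over all genes, and 46 members lay above 0, beside 50.7% of all genes. At the threshold that the study used for RIP-seq, a log2 fold change over 1 and an unadjusted p under 0.05, 32 members counted as enriched, beside 10.9% of all genes.

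The members took a larger share of each ORC1 IP library than of any input. Of the reads on genes, they held 0.309, 0.228 and 0.203% in the input libraries 1 to 3 (0.246 ± 0.0556%, SD, n = 3). In the ORC1 IP libraries 1 to 3 they held 0.589, 0.521 and 0.552% (0.554 ± 0.0343%). The shares of the groups did not overlap. Within the RIP replicates, the median log2 ratio of ORC1 IP to input over the members was 1.37, 0.99 and 1.85 for replicates 1, 2 and 3, against -0.01, 0.01 and 0.05 over all genes. In total, 35 members were higher in all 3 replicates and 4 were lower in all 3, beside 3271 and 3176 of the 16513 genes tested.

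**Figure D1:**
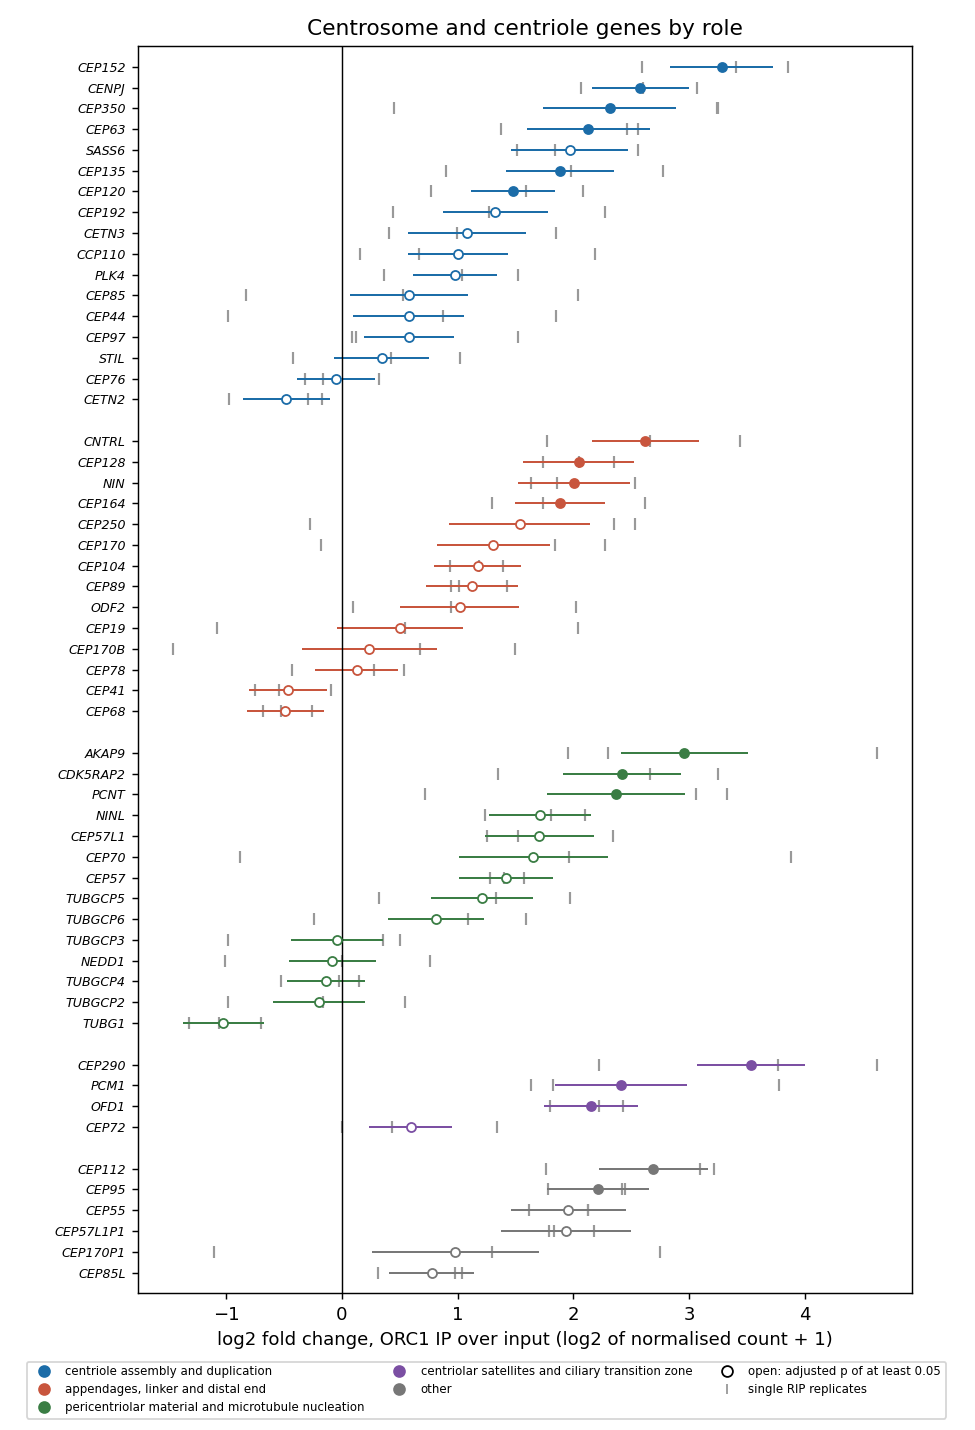
Log2 fold change of ORC1 IP over input for the 55 members tested, grouped by role, with circles for the limma estimate, horizontal lines for its SE, filled circles for an adjusted p under 0.05 and ticks for the ratio within each of the 3 RIP replicates. The 18 filled circles lie between 1.48 (CEP120) and 3.54 (CEP290), and TUBG1 lies lowest at -1.03.

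Among the genes of centriole assembly and duplication, 6 of 17 rose, beside 2.28% of all genes, and the median log2 fold change was 1.08. The role lists are short, and differences between their counts were not tested. CEP152 (ENSG00000103995, chr15:48712928-48811146, minus strand), the scaffold that recruits PLK4 to the centriole, had normalised counts of 624, 287 and 178 in the input libraries 1 to 3 and 3763, 3043 and 2588 in the ORC1 IP libraries 1 to 3. Its mean thus went from 363 ± 232 to 3131 ± 592 (SD, n = 3), with no overlap between the groups (log2 fold change 3.28 ± 0.45 (SE), adjusted p = 0.00543). For each further gene, values are normalised counts in libraries 1, 2 and 3 in that order, and the number with an SE is the log2 fold change of ORC1 IP over input with the adjusted p from limma. CEP63, which works with CEP152, rose from 346, 96.1 and 76.1 in the inputs to 897, 534 and 453 in the ORC1 IPs (2.13 ± 0.53 (SE), adjusted p = 0.048), and 22.0% of its 50-base stretches also occur in an overlapping noncoding gene. CENPJ (ENSG00000151849, chr13:24882279-24922889, minus strand), which controls the length of new centrioles, had 538, 325 and 250.4 in the inputs and 3269, 1363 and 2112 in the ORC1 IPs. Every ORC1 IP value of CENPJ was over the highest input (2.58 ± 0.42 (SE), adjusted p = 0.011).

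CEP350 and CEP135 were also called, but for CEP350 the replicates were uneven. CEP350, a large protein that binds centrioles and microtubules, had 1693, 3039 and 1425 in the inputs and 16144, 4160.5 and 13455 in the ORC1 IPs, so that the log2 ratio was only 0.45 in replicate 2 but 3.25 and 3.24 in replicates 1 and 3 (2.31 ± 0.57 (SE), adjusted p = 0.0472). CEP135, a component of the centriole wall, had 933, 830.2 and 805 in the ORC1 IPs, which differed little from each other, and 498, 209.6 and 117 in the inputs (1.89 ± 0.47 (SE), adjusted p = 0.0478). CEP120, which takes part in centriole elongation with CENPJ, showed the smallest rise of the called members (1.48 ± 0.36 (SE), adjusted p = 0.0455). With the replicate number as a block, CEP350 (adjusted p = 0.0597) and CEP120 (0.0619) no longer passed.

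PLK4, SASS6 and STIL, the core of the duplication pathway, did not pass the test. SASS6, the protein of the central cartwheel, had 612, 252 and 183 in the inputs and 2190.0, 719.9 and 1082 in the ORC1 IPs, with no overlap (1.97 ± 0.51 (SE), adjusted p = 0.0522), and it passed with the replicate block (adjusted p = 0.014). PLK4, the kinase that starts duplication, had 1059, 671 and 521 in the inputs and 1364, 1382 and 1496 in the ORC1 IPs. The lowest PLK4 value in ORC1 IP thus exceeded the highest input (0.98 ± 0.36 (SE), adjusted p = 0.142). STIL, which joins PLK4 and SASS6, overlapped between the groups, with 2462, 3009 and 1807 in the inputs and 3308, 2248 and 3677 in the ORC1 IPs (0.34 ± 0.41 (SE), adjusted p = 0.677). CCP110, a cap protein of the distal centriole, had a log2 fold change of 1.01 ± 0.43 (SE), adjusted p = 0.195. The small calcium-binding centrins pointed in opposite directions without passing, CETN3 at 1.08 ± 0.51 (SE), adjusted p = 0.24 and CETN2 at -0.48 ± 0.38 (SE), adjusted p = 0.498.

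Of the genes for appendages, the linker between centrioles and the distal end, 4 of 14 rose, beside 2.28% of all genes. The median log2 fold change of this group was 1.15. CNTRL, or centriolin, a protein of the older centriole, led with 506, 189 and 131 in the inputs and 1728, 1200.1 and 1432 in the ORC1 IPs (2.62 ± 0.46 (SE), adjusted p = 0.0138). CEP128 and NIN, both of the subdistal appendages, rose by 2.05 ± 0.48 (adjusted p = 0.0386) and 2.01 ± 0.48 (adjusted p = 0.0431) on the log2 scale. CEP164, a distal appendage protein needed for cilium formation, had inputs close together at 326, 386 and 269 and ORC1 IPs of 2009, 950.4 and 903, so that ORC1 IP 1 was clearly the highest (1.89 ± 0.39 (SE), adjusted p = 0.0249). The members with the lowest values in this group were CEP68, a linker protein, and CEP41, a protein of centrioles and cilia. For CEP68 the inputs were 727, 810.1 and 841 and the ORC1 IPs 505, 504 and 704, all below the inputs (-0.49 ± 0.33 (SE), adjusted p = 0.424). For CEP41 the inputs were 397, 389 and 344 and the ORC1 IPs 272, 230.5 and 323, again without overlap (-0.46 ± 0.34 (SE), adjusted p = 0.461).

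Of 4 genes of the centriolar satellites and the ciliary transition zone, 3 rose, beside 2.28% of all genes. A list of 4 genes is too short to stand for a role. CEP290 (ENSG00000198707, chr12:88049016-88142099, minus strand), a transition zone protein, had the highest log2 fold change of all members. It had 267, 89.8 and 73.7 in the inputs and 1247, 1235 and 1842 in the ORC1 IPs, or 143 ± 107 against 1442 ± 347 (SD, n = 3), which is a ratio of means of 10.05 (log2 fold change 3.54 ± 0.47 (SE), adjusted p = 0.00477). Of the 16513 genes tested, it ranked 12 by log2 fold change and CEP152 ranked 23. The input value of CEP290 rested on 253, 57 and 63 recovered reads. PCM1, the scaffold of the satellites, had 3817, 1872 and 1265 in the inputs and 13522, 5812 and 17326 in the ORC1 IPs (2.41 ± 0.57 (SE), adjusted p = 0.0401). OFD1, which sits at satellites and distal centrioles, had 231, 178 and 125 in the inputs and 1249, 622 and 589 in the ORC1 IPs (2.15 ± 0.41 (SE), adjusted p = 0.018). The remaining gene, CEP72, a satellite protein that is named here to complete the group, was at 0.59 ± 0.36 (SE), adjusted p = 0.363.

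Of the genes of the pericentriolar material and microtubule nucleation, 3 of 14 rose, beside 2.28% of all genes. All 3 encode large scaffold proteins. The median log2 fold change of this group was 1.31. AKAP9 (ENSG00000127914, chr7:91940840-92110673, plus strand), an anchor for protein kinase A at the Golgi and the centrosome, had 1489, 804 and 447 in the inputs and 7337, 3116 and 11032 in the ORC1 IPs (2.96 ± 0.55 (SE), adjusted p = 0.0174). CDK5RAP2, which binds and activates gamma-tubulin complexes, had 2045, 1680.0 and 941 in the inputs and 12990.1, 4279 and 8963 in the ORC1 IPs (2.42 ± 0.51 (SE), adjusted p = 0.0271). PCNT, or pericentrin (ENSG00000160299, chr21:46324124-46445769, plus strand), had 1953, 1831 and 1047 in the inputs and 16272, 3011 and 10548 in the ORC1 IPs (2.37 ± 0.59 (SE), adjusted p = 0.048). In all of these, every ORC1 IP value was over every input, with ORC1 IP 2 the lowest of the ORC1 IPs.

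None of the 6 genes of the gamma-tubulin ring was called by limma or edgeR. Of all genes, limma called 2.28% higher and 1.42% lower, and edgeR 2.57 and 1.31%. A count of 0 of 6 is near these shares and does not set the ring apart. TUBG1 and TUBGCP5 had an unadjusted limma p under 0.05. DESeq2 called TUBGCP5 higher (adjusted p = 0.045), beside 6.6% of all genes. Without ORC1 IP 2, limma called TUBGCP5 and TUBGCP6 higher (11.9% of all genes) and TUBG1 lower (6.38%). The median log2 fold change of the 6 was -0.09. TUBG1 (ENSG00000131462, chr17:42609641-42615238, plus strand), which encodes gamma-tubulin, had the lowest log2 fold change of the members, with 2441, 2194 and 2857 in the inputs and 1169, 1350.4 and 1146 in the ORC1 IPs. Its mean went from 2497 ± 335 to 1222 ± 112 (SD, n = 3), and the groups did not overlap (-1.03 ± 0.35 (SE), adjusted p = 0.114). Of its 50-base stretches, 30.0% also occur in other genes, nearly all of them in TUBG2, so its count is uncertain. TUBGCP2 had 1169, 1470.4 and 1639 in the inputs and 1704, 742 and 1468 in the ORC1 IPs, and the groups overlapped (-0.20 ± 0.40 (SE), adjusted p = 0.818). TUBGCP3 (-0.04 ± 0.40 (SE), adjusted p = 0.964), TUBGCP4 (-0.14 ± 0.34 (SE), adjusted p = 0.86), TUBGCP5 (1.21 ± 0.44 (SE), adjusted p = 0.135) and TUBGCP6 (0.81 ± 0.41 (SE), adjusted p = 0.279) overlapped too. In TUBGCP4, 33.4% of the annotated exon bases are shared with TP53BP1 on the opposite strand. NEDD1, which targets the ring to the centrosome, was at -0.08 ± 0.38 (SE), adjusted p = 0.928. The ring genes together took 0.0454 ± 0.00145% of the reads in the inputs and 0.0403 ± 0.0046% in the ORC1 IPs (SD, n = 3).

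Of the remaining 6 members tested, with roles outside these groups, CEP112 and CEP95 rose, beside 2.28% of all genes. CEP112 had 187, 56.7 and 57.3 in the inputs and 637, 492 and 541 in the ORC1 IPs (2.69 ± 0.47 (SE), adjusted p = 0.0134), and input 1 was clearly its highest input. These input values of CEP112 rested on only 177, 36 and 49 recovered reads. CEP95 (ENSG00000258890, chr17:64506865-64542461, plus strand), whose transcript the study manipulated in other experiments, had 1167, 736 and 607 in the inputs and 6352, 2529 and 3256 in the ORC1 IPs (2.21 ± 0.44 (SE), adjusted p = 0.0228). CEP95 shares 3.24% of its exon bases with DDX5 on the opposite strand. CEP55, an abscission protein of the midbody, NINL, a ninein-like protein of the pericentriolar material, and CEP57L1 lay just short of the threshold (adjusted p = 0.0507, 0.0516 and 0.0616), and passed with the replicate block (0.0292, 0.034 and 0.0364); these 3 were singled out after their values were seen. With the block, 20 members rose and none fell, beside 2.62 and 1.16% of all genes. On recovered reads, edgeR called 16 of 55 members higher, beside 2.57% of all genes, and DESeq2 called 29 of the 55 with an adjusted p, beside 6.6%. Neither called a member lower, beside 1.31 and 3.57% of all genes.

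**Figure D2:**
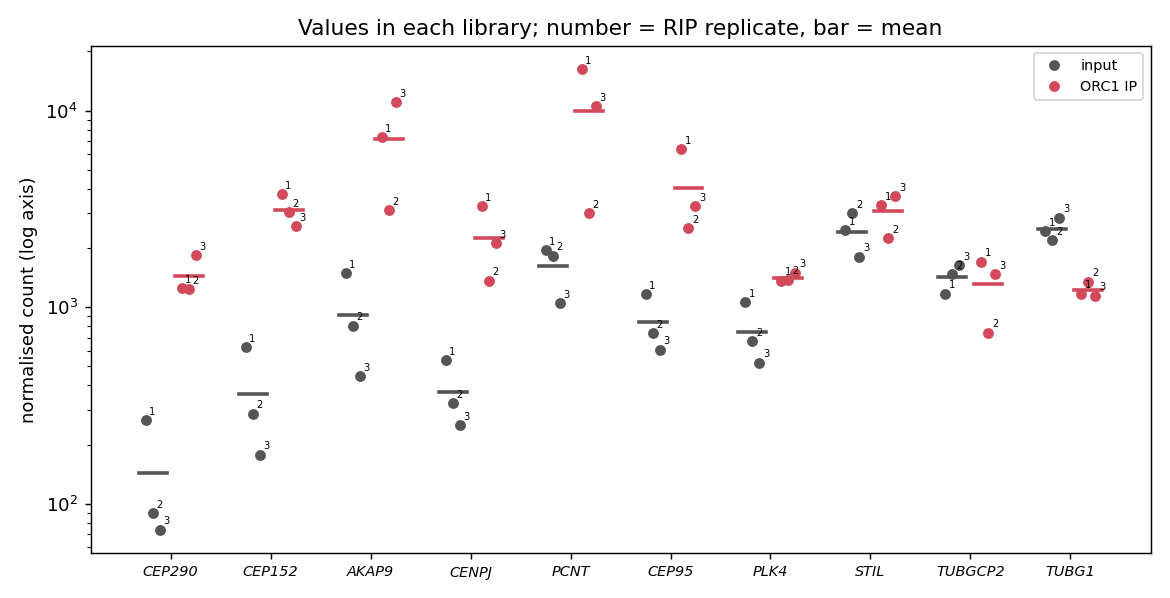
Normalised counts (log axis) of 10 members in each library, with grey points for inputs, red points for ORC1 IPs, the RIP replicate as a number and bars for group means. For CEP290, CEP152, AKAP9, CENPJ, PCNT and CEP95 all ORC1 IPs lie above all inputs, STIL and TUBGCP2 overlap, and for TUBG1 all ORC1 IPs lie below the inputs.

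The libraries differed among themselves in the same order for many called members. Input 1 was the highest input for 16 of the 18 and input 3 the lowest for 17, while ORC1 IP 1 was the highest ORC1 IP for 14 and ORC1 IP 2 the lowest for 12. Across the 55 members, the log2 ratios of replicates 1 and 3 had a Spearman correlation of 0.683, those of replicates 2 and 3 of 0.684 and those of replicates 1 and 2 of 0.229. These correlations are across genes, which are not independent, and the 3 ratios come from separate libraries. ORC1 IP 2 was also the library with the highest mitochondrial share and the highest MALAT1, and the part of this in the results was not tested. Without ORC1 IP 2, 33 members rose and 1, TUBG1, fell (adjusted p = 0.029), beside 11.9% of all genes that rose and 6.38% that fell. The number that rose was 18 without input 1 (2.44% of all genes), 3 without input 2 (0.291%), 2 without input 3 (0.0363%), 8 without ORC1 IP 1 (1.19%) and 2 without ORC1 IP 3 (0.145%), so that calls over all genes moved along with those of the members. CEP290 and CEP152 were called in each of these fits.

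**Figure D3:**
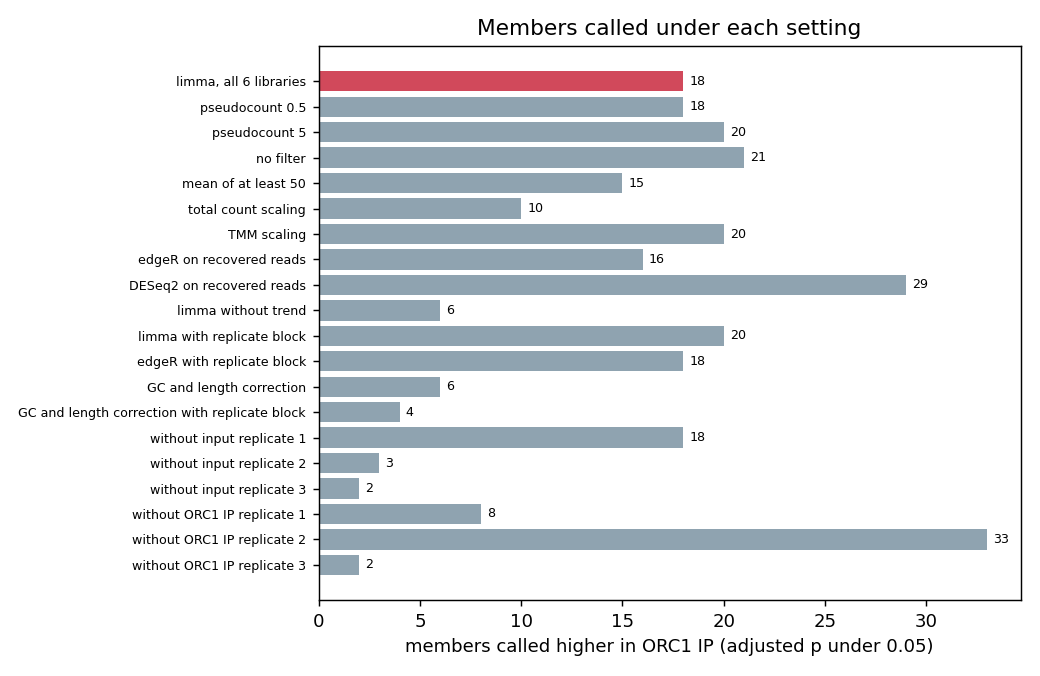
Number of members called higher in ORC1 IP (adjusted p under 0.05) under the limma fit to all 6 libraries (red) and under each alternative (grey). The count of 18 ranges from 2, without input 3 or ORC1 IP 3, to 33, without ORC1 IP 2.

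Called members had long coding sequences. In the canonical transcripts, the median coding length was 4758 nt for the 18 called members, 2280.0 nt for members not called and 1428 nt for all genes tested with a coding transcript. By limma, none of 14 members with under 2000 nt of coding sequence was called, beside 0.684% of all genes of that length called higher. A count of 0 of 14 is near that share and does not set them apart from other genes of that length. Of 21 members with 2000 to 4000 nt, 7 were called (4.03% of all such genes), and 11 of 17 with at least 4000 nt (13.8%). Of the 14 short members, 6 had an unadjusted p under 0.05, beside 3575 of the 16513 genes of any length. Among these 14, edgeR called 0 and DESeq2 called 4 (SASS6, CEP55, CEP57 and CEP57L1). The first, second and last of these 4 passed in limma with the replicate block. The median log2 fold changes of the members in these bins were 0.59, 1.01 and 2.31, and those of all genes -0.18, 0.41 and 1.02. Long members did not all rise, as TUBGCP6 (5460 nt of coding sequence, log2 fold change 0.81) and CEP170B (4665 nt, 0.24) show; CEP170B was singled out after its value was seen. The Spearman correlation of log2 fold change with coding length was 0.58 over 52 members and 0.50 over 12537 genes. With the longest annotated transcript in place of the coding sequence, it was 0.34 over 54 members and 0.34 over 16062 genes.

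After correction of each library for GC content and length of the longest transcript, 6 of 54 members rose and none fell, beside 0.766 and 0.33% of all genes, and the median log2 fold change was 0.97. These 6 were CEP290 (log2 fold change 2.78, adjusted p = 0.0172), CEP152 (2.88, 0.0213), CENPJ (2.24, 0.0318), CEP112 (2.39, 0.039), AKAP9 (2.13, 0.0463) and CEP95 (2.05, 0.0484). TUBGCP5 had no annotation match and was left out of this fit. Coding length was not part of the correction. Its correlation with log2 fold change was 0.50 over 12537 genes, beside 0.34 over 16062 genes for the longest transcript. How far the relation with coding length remained after the correction was not tested.

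The share of GAA codons was higher in the called members. GAA made up a median of 8.06% of codons in called members, 4.93% in members not called, 1.44% in the gamma-tubulin ring and 2.65% in all genes. It was 11.3% in AKAP9, 11% in CEP290 and 10.3% in CEP135, but only 3.7% in CEP164 and 4.82% in PCNT, which were called too. CETN3 had 11.3% without being called. The Spearman correlation of the GAA share with log2 fold change was 0.69 over 52 members and 0.35 over 12537 genes. In replicates 1, 2 and 3 it was 0.29, 0.77 and 0.69 over the members. For coding length the corresponding values were 0.69, 0.14 and 0.64. These correlations are across genes and share the 6 libraries. The study had described GAA repeats in RNAs found with ORC1, partly from these libraries, so the feature was not chosen independently of the data.

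The run of 3 GAA triplets (GAAGAAGAA, searched on the transcript strand only) occurred in the canonical transcripts of 18 of 54 members (33.3%), beside 13.0% of all genes. It was in 9 of the 18 called members (50%) and in 9 of 36 not called (25.0%). AKAP9 had 4 such sites in its coding sequence and CEP290 had 3, while CEP152, CNTRL and CENPJ, also among the most enriched, had none. None of the 5 gamma-tubulin ring genes with a transcript had the run. A match describes the letters alone, and longer transcripts have more places for one.

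**Figure D4:**
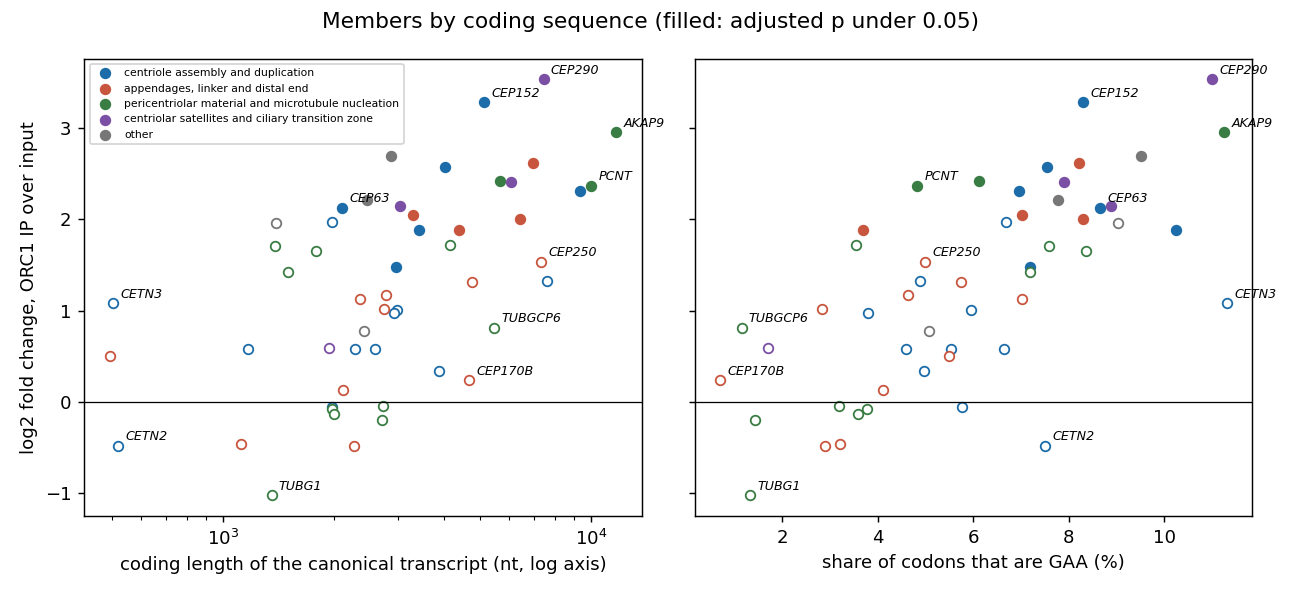
Log2 fold change of ORC1 IP over input for 52 members against the coding length of the canonical transcript (left, log axis) and against the share of codons that are GAA (right), coloured by role and filled where the adjusted p from limma was under 0.05. No member under 2000 nt is filled in this limma fit, beside 0.684% of all genes of that length called higher. The ring genes TUBG1 and TUBGCP6 lie at the low end of the GAA axis.

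Per kilobase of canonical transcript, the order of the members differed between the groups. Ranks are over the 55 members with a transcript match, which include the pseudogenes and leave out TUBGCP5. In the inputs, TUBG1 had the highest level (1553 ± 209 normalised counts per kb, SD, n = 3), while CEP152 ranked 38 of 55 (65.2 ± 41.8) and CEP290 ranked 51 (18.3 ± 13.7). In the ORC1 IPs, CEP55 had the highest level (1730.5 ± 769.9), next to CEP95 (1469 ± 737), PCM1 (1412 ± 678) and CDK5RAP2 (1403 ± 699.6), which did not differ from each other beyond their spread. CEP152 ranked 15 there (563 ± 107), CEP290 ranked 36 (184 ± 44.4) and TUBG1 ranked 9 (759.8 ± 69.6). The reads were counted over all exons of a gene, so these levels are approximate where other transcripts are used.

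Centrosome genes that the rule does not take included enriched genes as well. Of 52 such genes, 6 rose (11.5%) and none fell, beside 2.28 and 1.42% of all genes, and their median log2 fold change was 0.61. Before adjustment, 22 of them had a p under 0.05 in either direction, beside 3575 of the 16513 genes tested. MZT2B, POC1A and MZT2A, named here outside the naming rule to give the direction, were lower. KIAA1731, an older name of CEP295, which stabilises new centrioles, had 633, 537 and 255 in the inputs and 3381, 3626 and 2255 in the ORC1 IPs (2.77 ± 0.42 (SE), adjusted p = 0.00806). KIAA1009, an older name of CEP162 of the transition zone, had 120.3, 18.9 and 28.1 in the inputs and 409.9, 615 and 405 in the ORC1 IPs (3.50 ± 0.59 (SE), adjusted p = 0.0113). Inputs 2 and 3 of KIAA1009 were low, and its log2 ratios in replicates 1, 2 and 3 were 1.76, 4.95 and 3.80. It no longer passed with total count scaling, without input 3 or without ORC1 IP 3. The satellite genes CCDC66 (2.52 ± 0.43 (SE), adjusted p = 0.0116), PIBF1 (2.93 ± 0.59 (SE), adjusted p = 0.0232) and CCDC14 (2.13 ± 0.43 (SE), adjusted p = 0.0235) rose too, as did SPICE1 (adjusted p = 0.048), outside the naming rule. With the replicate block, SPICE1 no longer passed and CCDC41, an older name of CEP83 and likewise outside that rule, did. Not every CEP gene under an older name was enriched. AZI1 (now CEP131), FGFR1OP (CEP43) and FOPNL (CEP20), also outside that rule, were not called. Their log2 fold changes were 0.40, 0.15 and -0.48 (adjusted p from limma 0.67, 0.874 and 0.621).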

How the data were processed

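Native RIP-seq of nuclei from untreated HCT116 cells gave 3 input and 3 ORC1 IP libraries, made with a stranded ribosome-depleted total RNA kit. According to the study's methods and the submitters' processing notes, the authors used Trimmomatic for trimming, STAR for alignment to hg19, featureCounts for counts per Ensembl gene, and DESeq2. The strand setting and the treatment of reads that match several genes are not given in the sources used here, so genes with near-identical copies or antisense partners have uncertain counts. The deposited values are a signal, gene counts that the authors divided by 1 size factor per library. Within a tolerance of 0.001, 100% of the values were whole multiples of 1 read, and whole reads were recovered. The authors' own fold changes and p-values in the table were not used.

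The 16513 of 23013 genes whose normalised counts averaged 10 or more were tested on log2(value + 1) with limma 3.58.1 in R 4.3.3, with an intensity trend, 3 libraries against 3, and Benjamini-Hochberg adjustment at 0.05. Fold changes on this scale understate changes of low genes. The fit was tested on simulated data. Alternatives were pseudocounts of 0.5 and 5, other filters, total count and TMM scaling, no trend, edgeR 4.0.16 and DESeq2 1.42.0 on recovered reads, a replicate block, a GC and length correction (natural splines), and leaving out each library. The labels give same-numbered libraries as 1 RIP experiment; the correlations of their deviations from the group means were -0.322, -0.240 and 0.215 for replicates 1, 2 and 3, while input 2 and ORC1 IP 1 reached 0.497. The study's methods speak of triplicate experiments, and its blots of the RIP are described as biological triplicates. Nothing in the labels says whether the sequenced RIP experiments used separate cultures. The p-values thus measure the spread between these libraries, which may be technical.

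GENCODE v44 (GRCh38) gave transcripts, coding lengths and coordinates, by Ensembl identifier for 16062 tested genes (97.3%) and 55 members; the files' build is hg19, and no coordinates were converted. Primers came from a supplementary table of the study and were located by exact match. Shared sequence was the share of 50-base stretches of a transcript found in transcripts of other genes. Members named in the text were those past the threshold, the 5 highest and 5 lowest log2 fold changes, the genes that the study assayed, and the core duplication, scaffold and gamma-tubulin ring genes; of the other centrosome genes, up to 5 in each direction by p. The members and lists were chosen with earlier results of these data known.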

Additional observations from a re-analysis of the deposited data

How the results depend on the processing

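The median log2 fold change of the members stayed positive under all 19 alternatives (0.97 to 1.54), and the count of members that fell was 0 under each of them except without ORC1 IP 2. The number of members that rose, 18, became 10 with total count scaling (0.527% of all genes rose), which shifted the median of all genes to -0.19, 29 with DESeq2 (6.6%), 6 without the intensity trend (0.866%), 6 with the GC and length correction (0.766%) and 4 with that correction and the replicate block (0.417%), which kept CEP290, CEP152, CENPJ and CEP112; it lay between 2 and 33 when 1 library was left out (0.0363 to 11.9% of all genes). The number of other centrosome genes that rose, 6, became 2, 14, 3 and 3 in the first 4 of these settings and lay between 0 and 21 when 1 library was left out. Only CEP290 and CEP152 of the called members passed under all 19 alternatives (adjusted p of at most 0.0478), and CENPJ failed in 2 of them. The replicate block in limma changed the calls of CEP350, CEP120, NINL, CEP55, SASS6 and CEP57L1 among the members, those of SPICE1 and CCDC41 among the other centrosome genes, and no other. TUBGCP3 turned to 0.0021 on the log2 scale with TMM scaling. When 1 library was left out, TUBGCP2 lay between -0.44 and 0.16 on that scale, TUBGCP3 between -0.19 and 0.25, TUBGCP4 between -0.22 and 0.018, and NEDD1 between -0.32 and 0.17, none with an adjusted p under the threshold. The correlation of log2 fold change with transcript length, 0.34, was 0.43 with merged exons and 0.58 with coding length, an alternative chosen after seeing the data. The cause of these changes was not tested. The 3 libraries a group leave SEs of 0.33 to 0.72 on the log2 scale for the members. The 57 to 253 input reads of CEP290 and the 36 to 177 of CEP112 are few.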
